A study of Homo sapiens with 6 samples.

Results

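The cluster of miR-183, miR-96 and miR-182 was examined on 6 miRNA arrays of Panc-1 cells through 4 mature miRNAs, listed on the array as hsa-miR-183-5p, hsa-miR-183-3p, hsa-miR-96-5p and hsa-miR-182-5p, which were picked by the probe name out of 2565 miRNA probes. The names were chosen with earlier results of these arrays known, so the comparison of TGF-β with control below is a description of the members and its p-values are not independent evidence. miR-96-3p and miR-182-3p, the other arms of the same precursors, were also on the array and are given beside the members.

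Panc-1 is an established human cell line from a pancreatic ductal adenocarcinoma. Control cells received 0 ng/mL and treated cells 10 ng/mL of TGF-β, which induces epithelial–mesenchymal transition (EMT), the loss of epithelial in favour of mesenchymal character. RNA was taken after 72 h, labelled with the dye Cy5 and read in 1 colour, on 3 arrays per group. All 6 arrays therefore come from a single line without any other genetic or drug treatment, and the labels do not say whether the replicates were separate cultures, so that p-values measure only the spread between arrays. The array identifier was the same within each group and differed between the groups, and array set and treatment cannot be told apart. In total RNA, fewer cells that express a miRNA and less of it per cell cannot be told apart either.

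The miRNAs of this cluster are cut from a shared primary transcript. They are best known from sensory organs, where they are abundant in hair cells and photoreceptors, and they are often raised in epithelial tumours. The 5p arms act on overlapping sets of messages, among them FOXO1, a transcription factor that restrains growth. ZEB1, a transcriptional repressor induced by TGF-β, is described as a repressor of this cluster and of the miR-200 family, and the arrays give the level of each arm after such treatment.

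The sequences below are shown because the 5p arms are alike in the seed, the bases 2 to 8 that choose targets, while the 3p arms are not. All were taken from RefSeq (GRCh38.p14), written 5′ to 3′ with the seed in capitals.
miR-183-5p: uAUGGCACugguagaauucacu
miR-96-5p: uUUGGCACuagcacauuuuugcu
miR-182-5p: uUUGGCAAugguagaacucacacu
miR-183-3p: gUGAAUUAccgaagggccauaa
miR-96-3p: aAUCAUGUgcagugccaauaug
miR-182-3p: uGGUUCUAgacuugccaacua
miR-1271-5p: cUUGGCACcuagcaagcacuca

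Counted from the 5′ end, miR-183-5p and miR-96-5p differ in the seed only by A2U, and miR-96-5p and miR-182-5p only by C8A. Over the whole sequence, seed included, the closest pair is another one: miR-183-5p and miR-182-5p share 18 of 22 bases compared from the 5′ end (81.8%), miR-183-5p and miR-96-5p share 13 of 22 (59.1%), and miR-96-5p and miR-182-5p share 12 of 23 (52.2%). Outside the seed these pairs share 13 of 15, 7 of 15 and 6 of 16 bases. How far the probes tell such sequences apart is not given in the sources used here. miR-1271-5p, from chromosome 5, had the seed of miR-96-5p, and no further miRNA among the 2253 array names matched to RefSeq had the seed of a member.

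The 3 precursors lie on the minus strand of chromosome 7, where RefSeq lists no other gene over the interval of the cluster. The gene listed next to it on the side of miR-183, before the cluster in the direction of transcription, is UBE2H, and the one on the side of miR-182 is LOC105375501. In that direction, miR-183-5p comes first (chr7:129774967-129774988), followed by miR-183-3p (chr7:129774928-129774949), miR-96-5p (chr7:129774739-129774761) and miR-96-3p (chr7:129774697-129774718). miR-182-5p (chr7:129770447-129770470) and miR-182-3p (chr7:129770406-129770426) end the cluster. The arms of MIR183 and MIR96 are 166 bases apart and those of MIR96 and MIR182 are 4226 bases apart, so that MIR182 is the distant member. The array files themselves name no genome build.

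Signals are in the scanner's intensity units. The blank spots, which carry no probe, had means of 18.2 to 21.3 units, and a miRNA was counted as detected when its signal exceeded that mean by 2 SD of the blank spots, which lay at 19.5 to 22.8 units. By this rule 1531 to 1787 miRNAs were detected per array, most of them on TGF-β replicate 2. All 4 members and both other arms were detected on all 6 arrays, and none of their spots was flagged by the scanner. miR-96-5p and miR-182-5p were far above the blank spots, by 295 to 591 SDs and by 349 to 600 SDs. miR-183-3p was 15.2 to 30.5 SDs above them, miR-96-3p 8.84 to 14.5, miR-183-5p 4.79 to 10.5 and miR-182-3p 3.17 to 6.38. Signals of different probes are not set against each other, because their binding differs, so this order is one of distance from background and not of abundance. Of the marker lists of other cells, the acinar miRNAs miR-216b-5p and miR-217 were detected on 0 arrays and miR-216a-5p on 2. The blood cell miRNAs summed to 14.0 to 23.6 units above blank in controls and 18.0 to 23.0 after TGF-β, with miR-142-3p and miR-150-5p detected on all 6. The islet miRNAs summed to 267 to 513 units in controls and 381 to 474 after TGF-β, with miR-7-5p, which is not confined to islets, detected on all 6 arrays and miR-375 on 1. Nearly all of that sum was miR-7-5p, at 267 to 513 units. The part of such cells in the results was not tested.

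For the comparison, each signal was reduced by the blank mean, the arrays were quantile normalized and log2 values were fitted with limma over 1457 miRNAs, those found on all 3 arrays of either group or both. None of the 4 members passed an adjusted p of 0.05 (0 of 4 called), and 58 of the 1457 miRNAs did (3.98%), of which 38 were higher (2.61%) and 20 lower (1.37%) after TGF-β. At an unadjusted p under 0.05, limma likewise gave 0 of the 4, compared with 200 of all miRNAs (13.7%), and the methods' t-test also gave 0. The count of members from limma rose to 1, miR-183-5p, with median scaling (unadjusted p = 0.0447 from limma, where 12.2% of all miRNAs passed), with 75th percentile scaling over all probes (0.0437, 12.3%) and in the deposited values (0.0117, 9.83%). Without TGF-β replicate 1 it was 2, miR-183-5p (0.0114) and miR-183-3p (0.0393), where 12.3% passed. The median log2 fold change of the members was 0.15, compared with -0.013 over all miRNAs. It was above 0 for 3 of the 4 members and for 692 of the 1457 miRNAs (47.5%). Control and TGF-β arrays overlapped for every member. They were apart for 275 of all miRNAs (18.9%), a share at which 4 members can easily all overlap, so this does not set the members off.

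**Figure D1:**
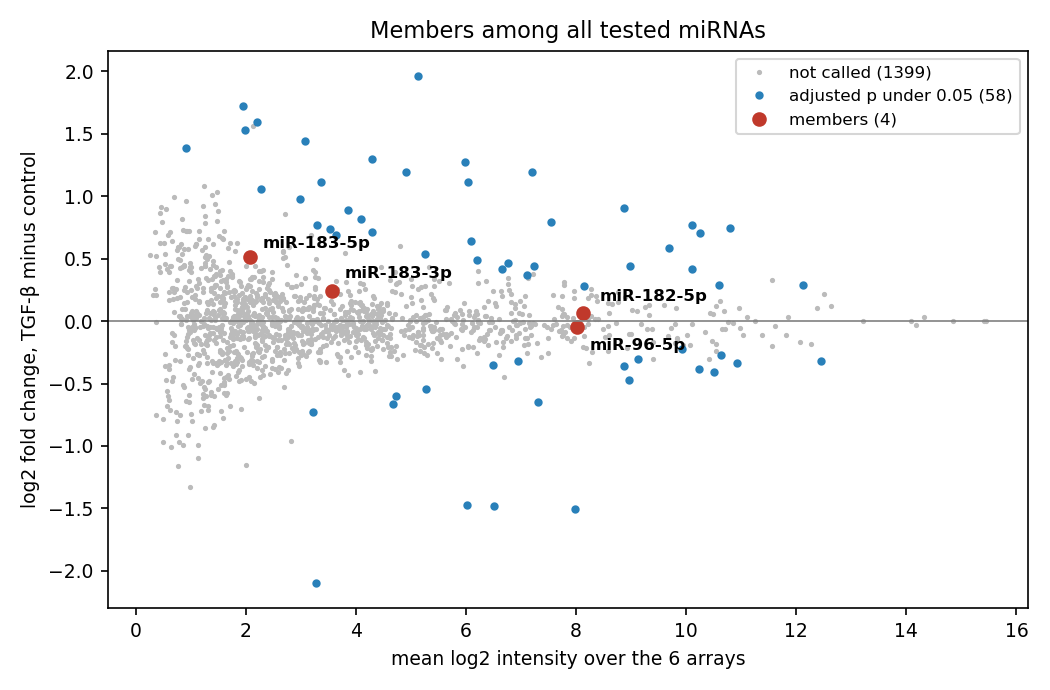
The log2 fold change of each of the 1457 tested miRNAs (vertical axis, TGF-β minus control) is plotted against its mean log2 intensity over the 6 arrays (horizontal axis), with the 58 called miRNAs in blue and the 4 members in red. miR-96-5p (-0.05) and miR-182-5p (0.06) sit near 0 among bright miRNAs, and miR-183-5p (0.52) sits at the dim end, where uncalled miRNAs also reach changes of this size.

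miR-183-5p, the guide strand of the first precursor, had the largest difference of the members in the fit above. Its log2 values were 2.10, 1.68 and 1.70 for control replicates 1 to 3 and 1.83, 2.40 and 2.80 for TGF-β replicates 1 to 3. TGF-β replicates 2 and 3 were above all control arrays, while TGF-β replicate 1 lay between them. The means were 1.83 ± 0.24 (SD, n = 3) and 2.34 ± 0.49 (SD, n = 3). The log2 fold change was 0.52 with a standard error of 0.26 and a 95% interval of -0.06 to 1.09, or 1.43-fold with 0.962- to 2.13-fold. limma's adjusted p was 0.427, and the exact permutation test gave p = 0.2 (2-sided), where 0.1 is the smallest that 3 arrays against 3 allow.

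In intensity units these were small differences near the background. The signal of miR-183-5p exceeded the blank mean by 3.88, 3.03 and 3.68 units in controls and by 3.31, 5.57 and 6.99 units after TGF-β. The blank spots themselves had SDs of 0.528 to 0.768 units. On the authors' processed scale, whose median is 25 on each array, miR-183-5p had 16, 13 and 12 for controls and 14, 27 and 27 after TGF-β. TGF-β replicate 1 was again at the level of the controls. Without TGF-β replicate 1 the log2 fold change was 0.77 (adjusted p = 0.236 from limma) and without TGF-β replicate 3 it was 0.29 (adjusted p = 0.783). Over all alternatives to these settings it stayed above 0, between 0.02 and 0.77, with an adjusted p of 0.232 to 0.991. The other detection filters and tests among them left the log2 fold change itself unchanged. The low end came with the local background and an added offset of 50 units, which narrows the log2 differences of a dim probe. The log2 fold change was also small, 0.07, with the local background and no offset. With the blank spots and that offset it was 0.04 (both settings added after the data were seen).

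miR-183-3p, the passenger strand of the same precursor, was higher on the same TGF-β arrays. Its log2 values were 3.45, 3.45 and 3.44 for controls and 3.45, 3.95 and 3.68 after TGF-β. TGF-β replicates 2 and 3 were above every control array and TGF-β replicate 1 was within their range. The change was 0.24 on the log2 scale with a standard error of 0.15 and a 95% interval of -0.08 to 0.57 (limma, adjusted p = 0.524), and the exact permutation test gave p = 0.3. The control arrays lay close together, with an SD of 0.007, compared with 0.25 among the TGF-β arrays. The deposited values were 43 for each control and 42, 77 and 52 after TGF-β. The log2 fold change of miR-183-3p was 0.365 without TGF-β replicate 1, 0.116 without TGF-β replicate 2 and -0.026 with the local background.

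miR-96-5p, the guide strand of the middle precursor, showed no shared direction among the treated arrays. Its log2 values were 8.11, 7.996 and 8.01 for controls and 8.27, 8.11 and 7.59 after TGF-β. TGF-β replicates 1 and 2 were above all controls, the latter narrowly, and TGF-β replicate 3 was below all of them. The means were 8.04 ± 0.06 (SD, n = 3) and 7.99 ± 0.36 (SD, n = 3), so that the spread was wider after treatment. The log2 fold change was -0.05 with a standard error of 0.14 and a 95% interval of -0.36 to 0.27, or 0.777- to 1.20-fold (limma, adjusted p = 0.944, exact permutation p = 1). Its sign followed the scaling: it was 0.05 with median scaling and 0.16 in the deposited values. Without TGF-β replicate 3 it was 0.16 (adjusted p = 0.529 from limma).

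miR-182-5p, the guide strand of the distant precursor, was the member with the narrowest interval in that fit. Its log2 values were 7.996, 8.20 and 8.11 for controls and 8.04, 8.14 and 8.31 after TGF-β. The groups overlapped, with TGF-β replicate 3 alone above all controls. The means were 8.10 ± 0.10 (SD, n = 3) and 8.17 ± 0.14 (SD, n = 3). The change was 0.06 on the log2 scale with a standard error of 0.09 and a 95% interval of -0.13 to 0.26, or 0.915- to 1.20-fold (limma, adjusted p = 0.84, exact permutation p = 0.6). By comparison, the interval of miR-183-5p reached up to 2.13-fold. The change of miR-182-5p was -0.01 without TGF-β replicate 3, and -0.32 with a standard error of 0.39 with the local background.

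The other arms, which are not members, were not called either. miR-96-3p had log2 values of 2.68, 2.89 and 2.80 for controls and 3.13, 2.87 and 2.98 after TGF-β, a difference of 0.20 on the log2 scale (SE 0.15, limma adjusted p = 0.634). In the deposited values its groups were apart, at 24, 30 and 28 for controls and 34, 37 and 31 after TGF-β (exact permutation test, p = 0.1, the smallest possible). The groups were apart for 156 of the 1282 miRNAs with a deposited value on every array (12.2%), and the median of all miRNAs was 0.11 higher after TGF-β on that log2 scale. miR-182-3p, the arm closest to the background, had 1.48, 1.66 and 1.06 for controls and 1.74, 1.65 and 1.40 after TGF-β, a difference of 0.20 on the log2 scale (SE 0.25, limma adjusted p = 0.821). miR-1271-5p, which has the seed of miR-96-5p, was detected on 5 of the 6 arrays and had a difference of 0.05 on the log2 scale (SE 0.36, limma adjusted p = 0.983). Of the 6 arms 5 had a log2 fold change above 0, compared with 47.5% of all miRNAs, and 0 passed the test, compared with 3.98%. Their median was 0.20, compared with -0.013 over all miRNAs.

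**Figure D2:**
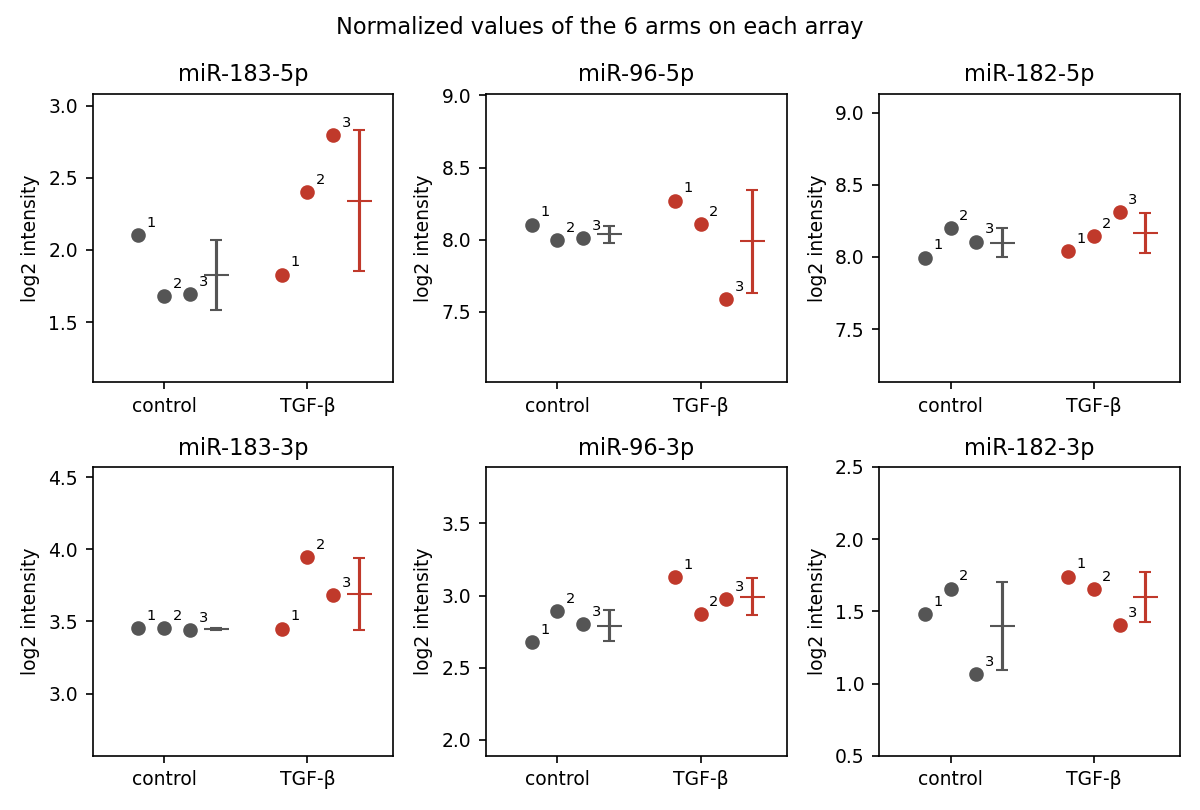
Each point is the log2 intensity of an arm on 1 array, numbered by replicate, with control in grey and TGF-β in red; bars give the mean ± SD (n = 3), and every panel spans 2 log2 units. Both arms of miR-183 are high on TGF-β replicates 2 and 3, and miR-96-5p is low on TGF-β replicate 3 alone, at 7.59.

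After the mean of each arm over the 6 arrays was taken off, TGF-β replicate 3 stood at 0.71 for miR-183-5p, 0.18 for miR-182-5p and -0.42 for miR-96-5p. TGF-β replicate 1 stood at -0.26, -0.09 and 0.26 for the same miRNAs, the opposite order. The values of miR-183-5p and miR-183-3p differed by a root mean square of 0.30 on this scale, those of miR-96-5p and miR-182-5p by 0.30 and those of miR-183-5p and miR-96-5p by 0.56, the largest among all pairs of arms. The pair of miR-182-5p and miR-96-3p had the smallest, 0.15. These are differences over 6 arrays, and an arm that varies little is close to others for that reason alone.

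Among the 1281 other miRNAs detected on all arrays, those with the pattern most like that of miR-183-5p by the same measure were miR-942-3p (0.17), miR-6740-3p (0.18) and miR-1248 (0.20). For miR-96-5p they were miR-18b-5p (0.07), miR-619-5p (0.09) and miR-1470 (0.09), and for miR-182-5p miR-550a-5p (0.04), miR-8073 (0.05) and miR-4281 (0.05). No arm of the cluster was among the nearest 3 of these 5p arms. With so few arms among 1281 miRNAs, this says little about whether the arms vary together.

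The other miRNAs of epithelial cells described as repressed by ZEB1 or lowered in EMT were taken as a list of 7 (miR-200a-3p, miR-200b-3p, miR-200c-3p, miR-141-3p, miR-429, miR-203a-3p and miR-205-5p). Of these 3 were detected well enough to be tested, and 0 of the 3 were called by limma, compared with 3.98% of all miRNAs. At an unadjusted p under 0.05 it was also 0, compared with 13.7% of all, as with the methods' t-test. Their log2 fold changes ran from -0.01 to 0.27 with a median of 0.22, compared with -0.013 over all miRNAs. Their standard errors were 0.15 to 0.37, and their control means were dim, at 0.97 to 2.93 on the log2 scale. miR-141-3p was detected on 0 arrays, miR-200c-3p and miR-205-5p on 1 each and miR-429 on 3. The remaining 3 of the 7 were detected on all 6 arrays, as were 1282 of the 2565 miRNA probes (49.98%).

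The scanner also gives a local background around each spot, and at the spot of miR-182-5p this was higher than the signal itself on 3 of the 6 arrays, control replicate 1 and TGF-β replicates 1 and 3. The same held there for 45.8%, 10.9% and 4.70% of all miRNA spots with a signal above 200 units, and for 0.685% to 9.68% on the other arrays. The local background was 268, 152 and 312 units for controls and 316, 231 and 352 after TGF-β, against signals of 246, 292 and 334 and of 251, 336 and 351. The neighbouring spot in the same row of the block, that of miR-182-3p, had a local background of 12.5 to 19.2 units. At the spot of miR-96-5p the ratio of local background to signal was 0.446 to 0.968. Over all spots above 200 units the median ratio was 0.434 to 0.990 per array. When the local background was used in place of the blank spots (limma's normexp method, which here also added an offset of 50 units), miR-182-5p had a log2 fold change of -0.32 with a standard error of 0.39, whereas that error was 0.09 with the blank spots, and 0 of 1457 miRNAs were called. miR-96-5p, the other bright member, was at -0.04, compared with -0.05 with the blank spots, while its standard error went from 0.14 to 0.27, and to 0.60 with no offset. The dim arms lay within 0.04 of 0. The offset was larger than their signal above the blank spots and narrows their log2 differences. With the same 50 units added to the blank-corrected values, a setting tried after the data were seen, miR-183-5p was at 0.04 and miR-96-3p at 0.03, while miR-182-5p was at 0.06. With the local background and no offset, tried likewise, miR-182-5p was at -0.98 with a standard error of 0.90, and 0 miRNAs were called. The dim arms still lay near 0 without the offset, with miR-183-5p at 0.07, miR-183-3p at -0.07, miR-96-3p at 0.03 and miR-182-3p at -0.095. Same-numbered arrays deviated together on the local-background scale with the offset, and with the replicate number as a block as well, a fit added after the data were seen, miR-182-5p was at -0.32 with a standard error of 0.05 (limma, unadjusted p = 0.003, adjusted p = 0.912).

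**Figure D3:**
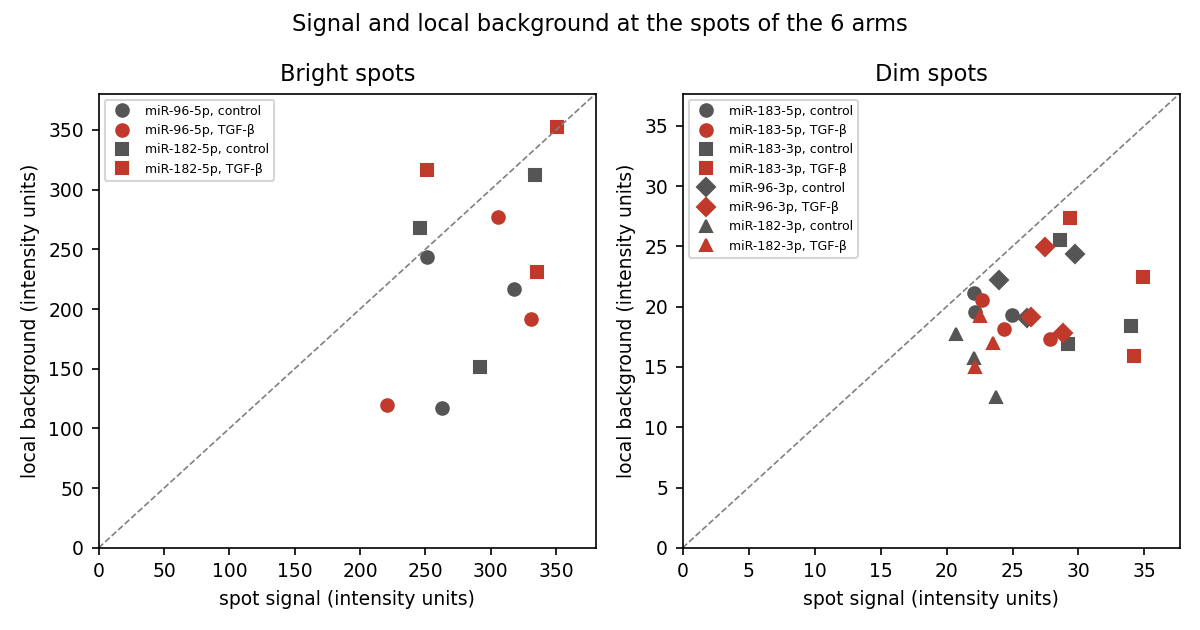
The local background of each spot (vertical axis) is plotted against its signal (horizontal axis), both in intensity units, for the bright arms (left) and the dim arms (right), with 1 point per array and the dashed line marking equality. On 3 arrays miR-182-5p lies above the line, and all dim spots lie below it.

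**Figure D4:**
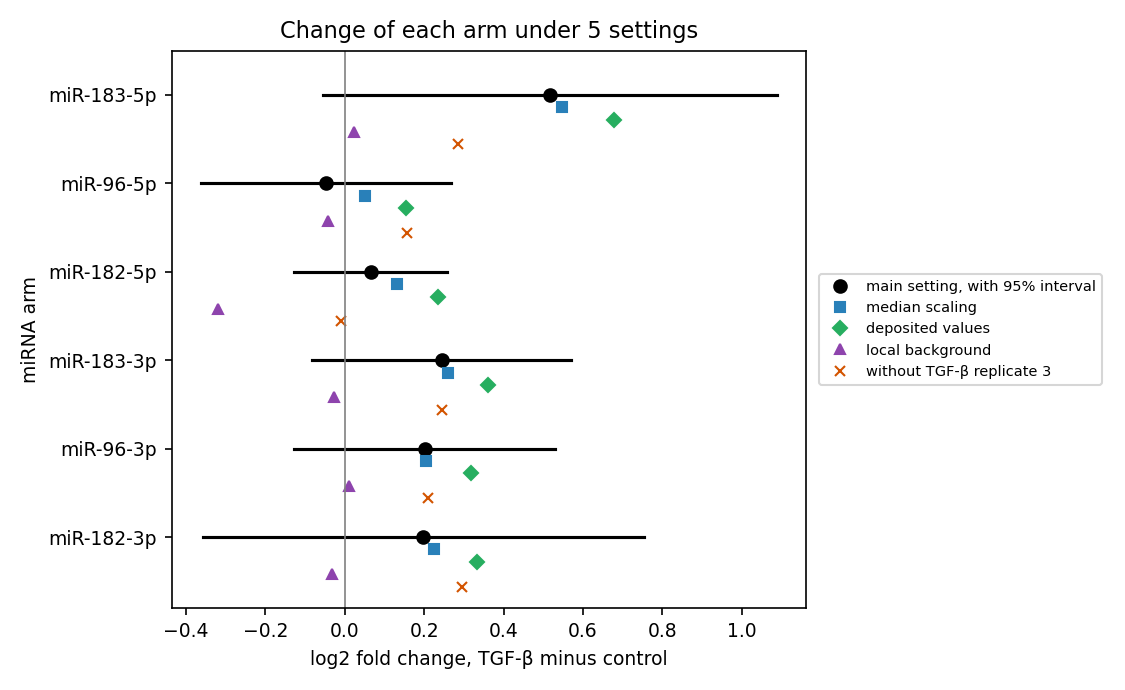
The log2 fold change of each arm (horizontal axis, TGF-β minus control) is shown for the main setting with its 95% interval as a bar, and as symbols for 4 alternatives. All 6 intervals include 0, the deposited values lie to the right of the main value for every arm, and miR-182-5p is at -0.32 with the local background (normexp with an offset of 50 units).

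In the deposited values every arm lay higher relative to control than in the main setting, with log2 fold changes of 0.68 for miR-183-5p, 0.36 for miR-183-3p, 0.16 for miR-96-5p and 0.23 for miR-182-5p. The median of all miRNAs was 0.11 on this scale, a shift that the values above include. TGF-β replicate 2 had the largest scale factor, 4.78, compared with 3.37 to 4.31 on the other arrays, and the highest deposited values of miR-96-5p (1492) and miR-182-5p (1514). The deposited group means were 1004 ± 45.7 and 1156 ± 355 (SD, n = 3) for miR-96-5p and 1056 ± 119 and 1258 ± 276 (SD, n = 3) for miR-182-5p, with exact permutation p-values of 0.6 and 0.3. In these values 0 of the 4 members were called by limma, compared with 44 of 1282 miRNAs (3.43%).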

How the data were processed

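Total RNA of Panc-1 cells was profiled on 6 arrays (3 control, 3 TGF-β). The authors deposited, per the file headers, the median intensity of each of 3200 spots with its local background, not normalized, and a table of processed intensities. The latter equalled the signal minus the mean of the 320 blank spots (5% left out at each end), scaled to a median of 25 over detected miRNAs and rounded, within 0.5 units. The authors' method is not given in the sources used here.

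Here the same blank mean was subtracted, the miRNA probes were quantile normalized, values were floored at 1 and log2 values were fitted with lmFit and eBayes with a trend (limma 3.58.1, R 4.3.3), with Benjamini-Hochberg adjustment over 1457 miRNAs. The 3 flagged miRNA spots were set as missing. The blank-spot background was preferred to the local one because earlier results had shown the local background to rise with the signal. Members, lists and alternatives were chosen with earlier results of these data known. Names were limited to members, arms of their precursors, miRNAs sharing a seed, the 3 nearest patterns per detected 5p member, and list members only if called, otherwise by range and count; the epithelial and marker lists are also named in full. The fit was tested on simulated data. Mature sequences were matched by name, for 7 of 7 miRNAs shown. Plots used matplotlib 3.10.9 under Python 3.11.15. The number of arrays limits the precision. The alternatives were other backgrounds, scalings, floors, detection filters and tests, the replicate number as a block, alone and (added after the data were seen) with the local background, the normexp offset of 50 changed (also added then), and each array left out.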

Additional observations from a re-analysis of the deposited data

How the results depend on the processing

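No member was called under any of the 26 alternatives, with the lowest adjusted p being 0.232 (miR-183-5p, deposited values). miR-183-5p and miR-96-3p kept their direction in all 26. Many of these do not bear on direction: the detection filters, the other floor, the limma variants, the t-test and the replicate block alone left both values unchanged. With the local background, with or without the replicate block, miR-183-3p was at -0.026, miR-182-5p at -0.318 and miR-182-3p at -0.033, and 0 miRNAs were called. With no offset these were at -0.073, -0.983 and -0.095, also with 0 miRNAs called, and an offset of 50 on the blank-spot background left 53 (both added after the data were seen). The log2 fold change of miR-96-5p was above 0 with median scaling (0.052), 75th percentile scaling over detected (0.011) or all probes (0.054), no normalization (0.028) and the deposited values (0.155). miR-1271-5p was at -0.003 without background correction and at -0.001 with that offset. Leaving out 1 array at a time gave 0.286 to 0.774 for miR-183-5p, 0.116 to 0.365 for miR-183-3p, -0.193 to 0.157 for miR-96-5p, -0.01 to 0.117 for miR-182-5p, 0.133 to 0.262 for miR-96-3p, 0.028 to 0.328 for miR-182-3p and -0.335 to 0.311 for miR-1271-5p. The values above 0 for miR-96-5p and below 0 for miR-182-5p came without TGF-β replicate 3. The 58 calls over all miRNAs became 35 with no normalization, 31 with detection on at least 1 array, 20 with no detection filter, 31 without the trend and 17 with the methods' t-test (195 before adjustment), and 26 to 51 with an array left out (35 without control replicate 2, 26 without TGF-β replicate 2 and 33 without TGF-β replicate 3). They were 38 higher and 20 lower, and 38 higher and 6 lower in the deposited values. The causes of these differences were not tested.

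With the replicate number as a block, 0 members and 61 miRNAs were called, and the adjusted p was 0.442 for miR-183-5p, 0.505 for miR-183-3p, 0.902 for miR-96-5p and 0.783 for miR-182-5p. The deviations of same-numbered arrays correlated at 0.13, 0.11 and -0.027 over 1282 miRNAs, so the numbers were not taken as pairs. With the local background these correlations were 0.30, 0.47 and 0.25. The block together with the local background, added after the data were seen, called 0 members and 0 miRNAs, with an adjusted p of 0.912 for miR-183-5p, miR-183-3p and miR-182-5p and 0.974 for miR-96-5p. The unadjusted p of miR-182-5p was then 0.003, while 40 of 1457 miRNAs (2.75%) were under 0.05. The distance to the blank spots limits what could be seen of miR-183-5p and miR-182-3p.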
